A study of Mus musculus with 45 samples.

Results

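The 9 genes described here regulate cohesin without being part of its ring: the loaders Nipbl and Mau2, the release factors Wapl, Pds5a and Pds5b, the release antagonist Cdca5 (sororin), the acetyltransferases Esco1 and Esco2, and the deacetylase Hdac8. They were taken by name as a list of known cohesin regulators, and all 9 occurred in the deposited gene score table, which holds 24333 genes. In Stag2 KO erythroblasts, the gene scores of Wapl, Pds5a and Esco2 were lower than in WT in the class of nuclei called Late, under all 17 alternative analyses tried. They were also lower in the class called Int, but there each of the 3 calls was lost with quantile normalization, with cyclic loess, without a variance trend and without KO replicate 2. In Late the fitted Pds5a score fell by 22.6%. That of the low-scoring Hdac8 was 45.2% higher (0.54 on the log2 scale), a change that with quantile normalization was 0.23 and no longer passed. No change was called in either class for Nipbl, Mau2, Pds5b, Cdca5 or Esco1. Of all genes tested, 51.4% were called in Late and 19.8% in Int. In the upper 2 quartiles of score, where 8 of the 9 genes lay, 31.4% and 13.4% were lower. Nothing particular to these regulators is read from the counts. None of the alternatives held the deposited cluster of the nuclei fixed, and in both classes nuclei of WT and KO lay mostly in different clusters. In C5, the only Int cluster that could be tested, none of the 9 genes was called, where 0.89% of 19438 genes were. There the log2 changes of Wapl, Esco2, Hdac8 and Pds5a were -0.099, 0.15, 0.24 and -0.31. Less the all-gene median of C5 they were -0.17, 0.088, 0.18 and -0.38. In C2, the only Late cluster that could be tested, none of the 9 genes was called, nor was any other of 17360 genes. C2 held 190 WT nuclei, with a median of 2101 fragments against 6285.5 in its KO nuclei. There the log2 change was 0.18 for Wapl, 0.13 for Esco2, 0.28 for Hdac8 and -0.53 for Pds5a. Less the all-gene median of C2 (0.15) they were 0.022, -0.029, 0.12 and -0.68.

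Cohesin is a ring that holds sister chromatids together after DNA replication and extrudes chromatin into loops between CTCF sites. The Nipbl-Mau2 dimer stimulates its ATPase and promotes loading and loop extrusion, and Wapl, working with a Pds5 protein, opens the ring and takes it off chromatin. Acetylation of the Smc3 subunit by Esco1 or Esco2 makes cohesin resistant to release, sororin (Cdca5) then displaces Wapl from Pds5, and Hdac8 removes the acetyl mark so that the subunits can be used again. Stag2 and Stag1 are the alternative docking subunits of the ring. Erythroblasts divide while their chromatin condenses, and they then lose the nucleus.

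The series compared mice with intact (WT) or deleted (KO) Stag2 and held 45 samples, of which the 6 ATAC libraries of Ter119+ erythroblasts were analysed here, 3 WT and 3 KO. Ter119 is a surface marker of red cell precursors, and the nuclei came from sorted cells carried through the 10x Genomics multiome protocol. Both genotypes were sampled 6 to 8 weeks after dosing with pIpC had ended (polyinosinic-polycytidylic acid, an inducer of interferon that switches on an inducible Cre), so the WT libraries share the treatment. The labels used here name neither the Cre driver, the deleted exons, the strain, the sex nor the age of the mice, and they do not state that each library came from its own animal, so the p-values below measure the spread between these libraries.

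The gene score adds up the ATAC signal over and around each gene. It measures accessible chromatin, not RNA or protein, and neighbouring genes can share fragments. The libraries held 4617 to 6990 nuclei and 46782673 to 66286151 fragments. The deposited classes are Early, Int and Late. Int nuclei had medians of 10121 to 12877 fragments in WT and 13911 to 14998 in KO, and Late nuclei 5693 to 6812 and 6043 to 6503.5. Fragment ends fell in peaks less often in each KO library, by the median of all its nuclei (57.4% to 59.9%), than in each WT library (62.2% to 64.7%). The groups were apart in Late nuclei too (60.3% to 61.8% and 64.1% to 66.4%) and overlapped in Int (55.1% to 56.2% and 55.3% to 61.9%). The summed score of 13 erythroid markers was 2660 to 2906 in WT and 2328 to 2529 in KO. Over all nuclei, the sums of the other lists were far smaller and higher in KO: 60.9 to 69.7 against 80.5 to 85.7 for 8 myeloid markers, 77.9 to 86.8 against 92.0 to 99.9 for 8 lymphoid, 175 to 204 against 212 to 223 for 5 megakaryocyte and 57.3 to 67.3 against 71.6 to 83.1 for 6 stem and progenitor markers. Of the megakaryocyte markers Itga2b was higher in KO (mean of 89.2 against 51.2) and Gp9 lower (99.7 against 117), and in Late nuclei that sum overlapped between the groups (162 to 198 and 193 to 211). The stem and progenitor sum overlapped in Int nuclei (75.4 to 91.0 in WT and 89.2 to 96.4 in KO). No marker was at 0 in every library, and the part of these differences in the results was not tested. Of 33320 distinct barcodes, 725 occurred in more than 1 library. The score of Stag2 itself was 65.3 ± 0.891 in WT and 62.9 ± 2.08 in KO (adjusted p = 0.348), and a score summed over the whole gene is no check of the deletion of a part of it.

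RefSeq promoter windows (GRCm38.p6) were at hand for 6 of the 9 genes, and 3 are shown: those of Wapl and Pds5a, whose scores fell in KO, and that of Cdca5, a gene with no called change. They run 5′ to 3′ on the strand of the gene and end at the base before the RefSeq start, and capitals mark the motif matches. The windows of Wapl and Pds5a are shown whole, at 250 bases, and that of Cdca5 by the 200 bases nearest its start.
Wapl, chr14:34673678-34673927, plus strand: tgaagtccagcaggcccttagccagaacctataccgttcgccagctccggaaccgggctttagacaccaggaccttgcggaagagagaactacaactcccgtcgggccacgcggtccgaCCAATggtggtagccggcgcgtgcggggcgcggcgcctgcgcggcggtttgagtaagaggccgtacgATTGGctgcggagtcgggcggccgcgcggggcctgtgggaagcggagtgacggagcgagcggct
Pds5a, chr5:65698237-65698486, minus strand: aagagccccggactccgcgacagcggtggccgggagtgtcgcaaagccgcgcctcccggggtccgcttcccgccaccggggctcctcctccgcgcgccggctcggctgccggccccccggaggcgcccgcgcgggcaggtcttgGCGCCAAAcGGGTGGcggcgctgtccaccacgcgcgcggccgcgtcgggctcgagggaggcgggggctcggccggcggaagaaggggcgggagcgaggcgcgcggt
Cdca5, chr19:6084897-6085096, plus strand: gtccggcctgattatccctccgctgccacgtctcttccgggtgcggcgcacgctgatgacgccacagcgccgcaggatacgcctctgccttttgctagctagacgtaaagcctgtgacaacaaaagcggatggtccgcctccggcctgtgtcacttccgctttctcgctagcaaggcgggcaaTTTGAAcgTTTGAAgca

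Exact matches were sought on both strands of each window. For E2F the letters were TTTCCCGC or TTTGGCGC or TTTCGCGC. For GATA factors they were AGATAA, with TGATAA as the other form searched. For the CACCC box, which Klf1 and related factors bind, they were CCACCC. The CCAAT box was searched by the letters of its name, and CHR, a cell cycle element, by TTTGAA. The Wapl window held CCAAT on each strand, at 131 to 127 and 64 to 60 bases before the start. The Pds5a window, 80.4% G and C against a median of 52.4% over all 32851 windows of 250 bases, held an E2F match (106 to 99 bases) and, on the same opposite strand, a CACCC match (97 to 92 bases). Its RefSeq start lies 380 bases from the start that the deposited table gives. The Cdca5 window held CHR at 17 to 12 and at 9 to 4 bases before the start. Of all windows, 1.53% held an E2F match, 16.6% GATA, 28.1% the CACCC box, 33.8% CCAAT and 16.0% CHR. A match describes the letters and does not show a bound site.

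**Figure D1:**
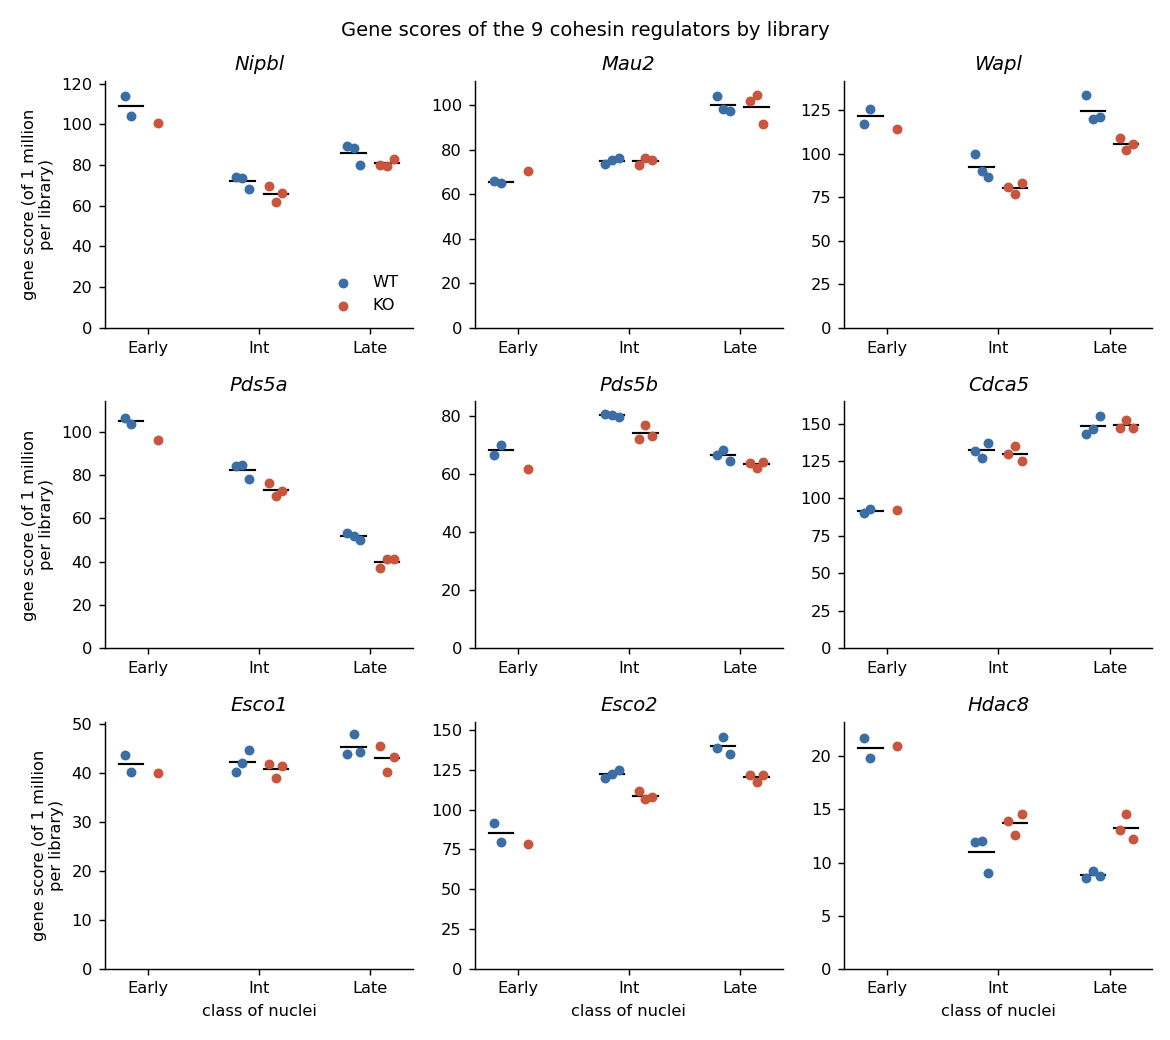
Gene scores of the 9 genes (y axis, each library scaled to a sum of 1000000) by class of nuclei (x axis), with 1 point per library of at least 50 nuclei, WT in blue and KO in red, and black lines at group means of 2 or more libraries. In Late nuclei the 3 KO points lie below the 3 WT points for Wapl, Pds5a, Pds5b and Esco2 and above them for Hdac8.

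KO was compared with WT within each class to ask which of these genes change when Stag2 is lost. In Late nuclei, 3 of the 9 genes were lower and 1 was higher past the threshold (limma, adjusted p under 0.05), where 51.4% of the 15886 genes tested were called, 32.9% higher and 18.5% lower. In Int nuclei 3 were lower and none was higher, where 19.8% of 19465 genes were called, 12.7% higher and 7.1% lower. Over all nuclei the counts were 3 lower and 1 higher, where 43.3% of 17682 genes were called, 29.1% higher and 14.2% lower. These regulators have high scores: in each of the 3 comparisons 8 of the 9, all but Hdac8, lay in the upper 2 quartiles of tested genes by mean score. In those quartiles 31.4% of genes were lower and 14.5% higher in Late, 13.4% and 13.9% in Int, and 26.6% and 15.2% over all nuclei. The 3 lower regulators in Late and over all nuclei are thus near the number that genes of such scores gave, and nothing particular to these genes is read from the counts. In each of the 3 comparisons the KO libraries lay wholly below the WT libraries for 4 of the 9 genes and wholly above for 1. Over all genes tested, KO lay wholly below for 22.7% and above for 36.8% in Late (59.5% in all), for 14.4% and 22.8% in Int (37.3%), and for 19.3% and 36.1% over all nuclei (55.4%). The median log2 fold change of the 9 genes was -0.077 in Late and -0.11 in Int, and that of all genes tested was 0.052 and 0.057. The zero of these changes moved with the scaling: centring each library on its median moved the all-gene median from 0.096 to -0.050 over all nuclei, from 0.057 to -0.12 in Int and from 0.052 to -0.013 in Late. The share of calls that were higher moved with it, from 67.1% to 35.4%, 64.2% to 24.4% and 64.0% to 47.9%. Changes less the all-gene median are therefore given below beside the called ones and those within clusters. For the genes with no called change they ran from -0.14 (Nipbl) to -0.046 (Cdca5) in Late and, leaving aside Hdac8 (0.24), from -0.18 (Nipbl) to -0.059 (Mau2) in Int. In the upper 2 quartiles of score, the lower given first, the medians were -0.0595 and -0.0622 in Late and 0.019 and -0.0639 in Int. Of the 8 higher-scoring regulators, Mau2 and Cdca5 lay above the median of their quartile, the highest, in both classes. Their changes were -0.011 and 0.0059 in Late and -0.0013 and -0.024 in Int. Set beside genes of like score, falls of the other higher-scoring regulators in Late and Int are smaller than the changes less the all-gene median.

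**Figure D2:**
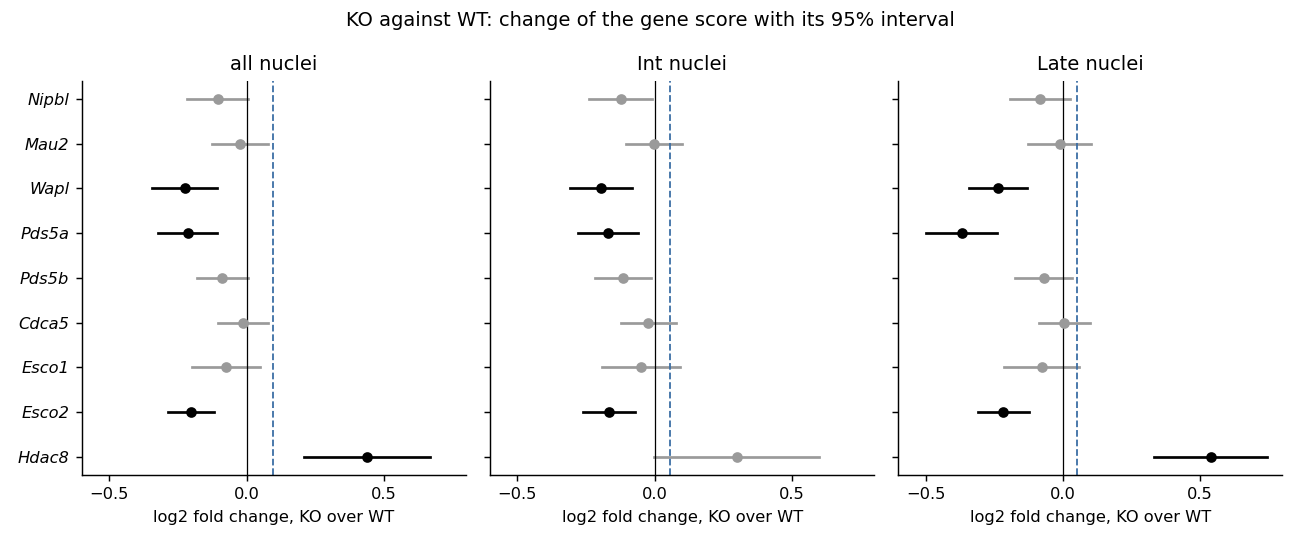
Log2 fold change of the gene score, KO over WT (x axis), with its 95% interval for each of the 9 genes (y axis) over all, Int and Late nuclei, 3 libraries per genotype. Black marks genes past the threshold, grey the others, and the dashed blue line is the median of all genes tested; Pds5a lies farthest to the left in Late nuclei at -0.37 and Hdac8 farthest to the right at 0.54.

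Nipbl, the large subunit of the loader (chr15:8289824-8465285), had Late scores of 89.2, 88.4 and 80.0 in WT replicates 1 to 3 and 80.1, 79.6 and 82.7 in KO replicates 1 to 3. The groups overlapped through WT replicate 3, the lowest WT library. The log2 change was -0.085 ± 0.051 (SE) in Late (adjusted p = 0.176) and -0.12 ± 0.056 in Int (adjusted p = 0.122), neither past the threshold. Without WT replicate 3 the Late change was -0.13 and passed (adjusted p = 0.0358), with nuclei matched on fragments the Int change was -0.16 and passed (adjusted p = 0.0399), and with median centring both classes passed, at -0.15 and -0.30. At the other end of the 17 alternatives the change was -0.017 in Late and -0.081 in Int. The highest adjusted p was 0.818 in Late and 0.447 in Int.

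Mau2, the partner that stabilises Nipbl (chr8:70016123-70042734), had Int scores of 73.7, 75.3 and 76.3 in WT and 73.4, 76.3 and 75.5 in KO. The 6 Int libraries lay close together with the groups mixed, and they gave a log2 change of -0.0013 and a 95% interval from -0.10 to 0.10 (adjusted p = 0.988). Late scores were 104, 98.5 and 97.5 in WT and 102, 105 and 91.8 in KO, and the change was -0.011 (interval -0.13 to 0.10, adjusted p = 0.877).

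Wapl, the factor that opens the ring (chr14:34673928-34747983), fell in both classes. Its Late scores were 133, 120 and 121 in WT and 109, 102 and 106 in KO. The highest KO library lay below the lowest WT library, and the log2 change was -0.24 ± 0.049 (adjusted p = 0.00145), or -0.29 less the all-gene median. In Int the scores were 99.9, 90.1 and 86.3 in WT and 80.7, 76.8 and 83.1 in KO. The groups were again apart, by a smaller gap, with a change of -0.20 ± 0.055 (adjusted p = 0.0112), or -0.25 less the all-gene median. The Late call held in all 17 alternative analyses. The Int call was lost in 6: with quantile normalization (-0.16, adjusted p = 0.0579), cyclic loess (-0.16, 0.0703), no filter (0.0922) or no variance trend (0.143), without WT replicate 1 (-0.14, 0.104), the highest Int library, and without KO replicate 2 (-0.17, 0.0653).

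Pds5a, 1 of the paired Pds5 scaffolds on which Wapl and sororin act (chr5:65615260-65697856), had the most negative log2 change of the 9 genes in Late. Its Late scores were 53.3, 52.1 and 50.1 in WT and 37.2, 41.3 and 41.4 in KO. The groups were widely apart, and the change was -0.37 ± 0.060 (adjusted p = 2.32e-04), or -0.42 less the all-gene median. Its 95% interval ran from -29.2% to -15.3%. In Int the scores were 84.3, 84.6 and 78.1 in WT and 76.2, 70.3 and 72.6 in KO, with a change of -0.17 ± 0.053 (adjusted p = 0.0214), or -0.23 less the all-gene median. The Late call held in all 17 alternatives. The Int call was lost in 8: with quantile normalization (-0.15, adjusted p = 0.0576), cyclic loess (-0.14, 0.0670), no filter (0.0689) or no variance trend (0.140), and without WT replicate 1 (0.0809), WT replicate 2 (0.0618), KO replicate 2 (0.119) or KO replicate 3 (0.0503). The KO effect in Late less that in Int was -0.20 ± 0.070, which did not pass over all genes (unadjusted p = 0.00959, adjusted p = 0.0994, where 6.41% of 15873 genes passed). Over 13 alternatives that difference stayed negative, at -0.25 to -0.12, and its adjusted p ranged from 0.0562 to 0.416. The smallest size came without KO replicate 1 (-0.12, adjusted p = 0.416).

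Pds5b, the second Pds5 protein (chr5:150673827-150810669), did not pass in either class although its groups did not overlap. Int scores were 80.7, 80.3 and 79.4 in WT and 71.9, 76.9 and 73.1 in KO. The 3 WT libraries lay close together and all KO libraries below them, with a log2 change of -0.11 ± 0.050 (adjusted p = 0.111). Late scores were 66.5, 68.3 and 64.4 in WT and 63.7, 62.0 and 64.1 in KO, and the change was -0.069 ± 0.048 (adjusted p = 0.246). With median centring it passed in both classes, at -0.29 in Int and -0.13 in Late. At the other end of the 17 alternatives it was at -0.070 in Int and -0.0096 in Late (highest adjusted p of 0.363 and 0.893).

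Cdca5, or sororin, which keeps acetylated cohesin closed until mitosis (chr19:6085097-6091773), had Late scores of 143, 147 and 155 in WT and 147, 152 and 147 in KO. The groups overlapped, the log2 change was 0.0059, and the interval of the change ran from -5.76% to 6.99% (adjusted p = 0.915). In Int the change was -0.024, with an interval from -8.22% to 5.44% (adjusted p = 0.770).

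Esco1, the acetyltransferase that acts through the cell cycle (chr18:10566512-10610352), had Late scores of 44.0, 48.0 and 44.2 in WT and 45.5, 40.2 and 43.3 in KO. The groups overlapped in both classes. The log2 change was -0.077 ± 0.063 in Late (adjusted p = 0.320) and -0.051 ± 0.069 in Int (adjusted p = 0.645), where it passed only with median centring (-0.23, adjusted p = 0.0442).

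Esco2, the acetyltransferase that establishes cohesion during S phase (chr14:65819027-65833969), fell in both classes. Late scores were 139, 146 and 135 in WT and 122, 117 and 122 in KO. All KO libraries lay below the lowest WT library, and the log2 change was -0.22 ± 0.043 (adjusted p = 9.89e-04), or -0.27 less the all-gene median. Int scores were 120, 123 and 125 in WT and 112, 107 and 108 in KO, again apart, with a change of -0.17 ± 0.047 (adjusted p = 0.0111), or -0.22 less the all-gene median. The Late call held in all 17 alternatives. The Int call was lost in 4: with quantile normalization (-0.12, adjusted p = 0.0544), cyclic loess (-0.11, 0.0623) or no variance trend (0.105), and without KO replicate 2 (-0.15, 0.0654).

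Hdac8, the Smc3 deacetylase, lies on the X chromosome (chrX:102284638-102505158), as Stag2 does. Its Late scores were 8.55, 9.22 and 8.70 in WT and 13.1, 14.6 and 12.2 in KO. The lowest KO library exceeded the highest WT library, and the log2 change was 0.54 ± 0.096 (adjusted p = 4.61e-04), or 0.49 less the all-gene median. In Int the scores were 11.9, 12.02 and 9.04 in WT and 13.9, 12.6 and 14.5 in KO, and the change of 0.30 ± 0.15 did not pass (adjusted p = 0.157). The difference between the classes, 0.24 ± 0.16, did not pass either (adjusted p = 0.450). Over 13 alternatives it ran from 0.12, without KO replicate 2, to 0.35, without WT replicate 3, and was 0.13 with quantile normalization and 0.15 with cyclic loess (adjusted p of 0.114 to 0.850 over all 13).

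Hdac8 has a low score. In Late nuclei it lay in the lowest quartile of genes by mean score, where the median change was 0.34 and 57.7% of genes were called higher, against 9.94% in the highest quartile. The part of the level in its change was not tested. With quantile normalization its Late change was 0.23 and no longer passed (adjusted p = 0.0708), and with cyclic loess it was 0.26 and passed (adjusted p = 0.0410). Of 376 genes of the X chromosome, 62 (16.5%) were higher and 94 lower in Late, with a median of -0.050, beside 32.9% higher and a median of 0.052 over all genes.

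Median fragments per nucleus lay higher in each KO library than in any WT library in Int and overlapped in Late, so the nuclei were also matched on fragments within each class. The Late changes were then -0.24 for Wapl, -0.39 for Pds5a, -0.23 for Esco2 and 0.52 for Hdac8, all past the threshold. In Int they were -0.23 for Wapl (adjusted p = 0.00365), -0.20 for Pds5a (0.00931) and -0.15 for Esco2 (0.0204), also past it, and Hdac8 did not pass (0.26, adjusted p = 0.181). The share of Late nuclei with a Pds5a score above 0 was 45.8% ± 4.40 in WT and 37.3% ± 2.46 in KO (mean and SD of 3 libraries), with no overlap. For Hdac8 it was 9.90% ± 0.911 in WT and 14.2% ± 0.570 in KO, also with no overlap. For Wapl it was 77.3% ± 3.76 and 69.9% ± 2.98, where the lowest WT library, at 73.5%, stood next to the highest KO library, at 73.3%. For Esco2 the shares of 56.7% ± 4.19 and 50.3% ± 1.99 overlapped. In Int, where KO nuclei were deeper, the mean shares were not lower in KO: 73.6% in WT and 75.5% in KO for Pds5a, 79.8% and 80.5% for Wapl, and 67.6% and 70.2% for Esco2, each with overlap, and 18.5% and 25.9% for Hdac8, without. Such a share depends on depth, and no test was made on it. It was not computed for other genes, so how many of them are without overlap is not known. Nothing is therefore read from the overlaps. In the scores themselves 59.5% of genes were apart in Late and 37.3% in Int.

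Across the classes the 9 genes split in direction. Because the authors drew classes from these same nuclei, Late against Int is given as a description. Late nuclei were also shallower, with library medians of 5693 to 6812 fragments against 10121 to 14998 in Int. Depth was not matched between the classes, and its part in these differences was not tested. Within each library, the Late score of Pds5a was lower than its Int score in 6 of 6 libraries, by a mean of -0.76 on the log2 scale, so the Int score was 1.69 times the Late one. Pds5b was also lower in 6 of 6 libraries, by -0.24. Wapl (0.41), Mau2 (0.40), Nipbl (0.27), Cdca5 (0.18) and Esco2 (0.17) were higher in Late in 6 of 6 libraries, and Esco1 (0.087) in 5 of 6. Over all genes, 41.4% were lower and 29.1% higher in Late in all 6 libraries, with a median of -0.086. The sizes moved with the scaling while these signs held: over median centring, quantile normalization and cyclic loess, Cdca5 ranged from 0.050 to 0.30, Esco2 from 0.048 to 0.29, Nipbl from 0.20 to 0.40, Wapl from 0.31 to 0.54, Mau2 from 0.32 to 0.53 and Pds5b from -0.30 to -0.12. Hdac8 was lower in 5 of 6 (-0.16), a direction that turned with quantile normalization (0.24) and with cyclic loess (0.19).

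Of the release factors, Wapl was higher in Late and its Pds5 partners were lower, in WT and KO alike. Both directions were common over all genes (29.1% higher and 41.4% lower in all 6 libraries). Nothing particular to the release factors is read from this. For Pds5a the Late minus Int difference was -0.66 ± 0.030 in WT and -0.86 ± 0.14 in KO (mean and SD of 3 libraries), with KO replicate 1 the lowest at -1.02. For Wapl it was 0.43 ± 0.041 in WT and 0.39 ± 0.045 in KO.

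**Figure D3:**
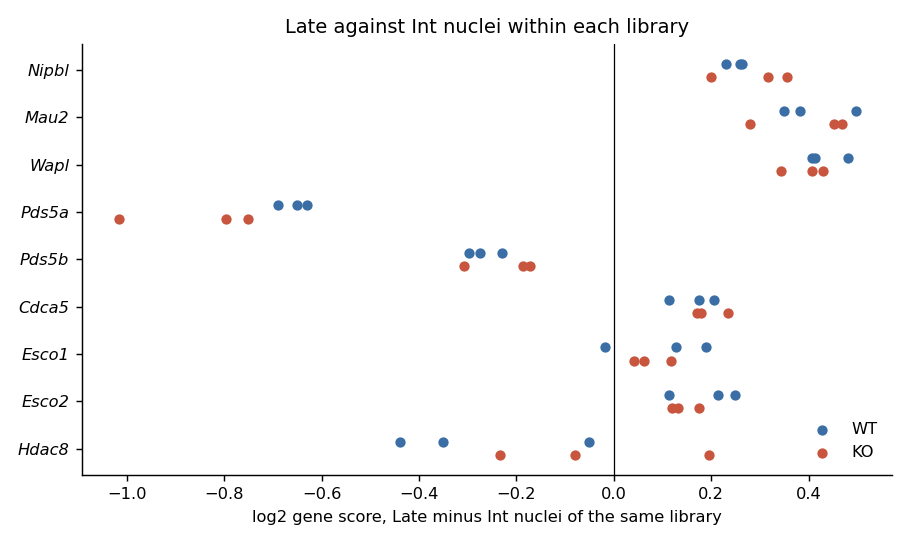
Log2 gene score in Late minus Int nuclei of the same library (x axis) for the 9 genes (y axis), with 1 point per library, WT in blue and KO in red. All 6 points of Pds5a and Pds5b lie left of 0, and all 6 of Nipbl, Mau2, Wapl, Cdca5 and Esco2 lie right of it.

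Early nuclei could not be tested, since only WT replicates 1 and 2 and KO replicate 1 held at least 50 of them (102, 235 and 310). The median Early nucleus there had 43844, 41018 and 44045.5 fragments, far more than in the other classes. Pds5a scored 106 and 104 in these WT libraries and 96.1 in the KO library, above the Int value of the same library in each, so that in these 3 libraries its order was Early, Int, Late from high to low. Hdac8 scored 21.7, 19.9 and 21.0, also above Int, and the KO value lay between the WT values. Nipbl (114, 104 and 101) and Wapl (117, 126 and 114) scored higher in Early than in Int. Cdca5 (90.0, 92.8 and 92.6) and Esco2 (91.5, 79.7 and 78.4) scored lower in Early than in either other class. Mau2 scored 66.1, 65.3 and 70.4, also below its Int values. Esco1 scored 43.6, 40.2 and 39.9, above Int in WT replicate 1 and below it in the others, and Pds5b (66.6, 70.0 and 61.5) lay below Int in each.

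Most deposited clusters held nuclei of mainly 1 genotype, so that cluster and genotype cannot be told apart in them. Of the Late clusters, C3 held 10059 WT and 75 KO nuclei and C2 held 190 WT and 7070 KO nuclei. The Late comparison of genotypes is thus mostly a comparison of C2 with C3. C9 and C11 (99.0% and 99.9% WT) and C8 and C10 (99.4% and 99.9% KO) are the deeper Int clusters. Pds5a scored 96.8, 89.9 and 91.0 in C9 and 84.7, 83.2 and 87.3 in C8. It scored 85.4, 88.9 and 79.2 in C11 and 69.4, 63.8 and 67.9 in C10. C8 lay below C9 and C10 below C11 with no overlap of libraries. The third large WT cluster of Int, C6 (98.7% WT), went the other way for Pds5a, with scores of 69.2, 71.9 and 69.7, below every KO library of C8 and next to those of C10. Its WT nuclei were shallow, with a median of 5304 fragments against 21195 in KO nuclei of C8 and 15385.5 in those of C10. Wapl scored 114, 95.2 and 93.6 in C9 and 89.8, 89.4 and 90.5 in C8. It scored 101, 91.4 and 89.5 in C11 and 76.6, 78.1 and 83.3 in C10. In C6 it scored 96.7, 88.0 and 84.3, on both sides of the values of C8. Esco2 scored 106, 109 and 107 in C9 and 101, 96.2 and 100 in C8. It scored 127, 133 and 131 in C11, 126, 114 and 122 in C10, and 127, 138 and 127 in C6. Hdac8 scored 12.4, 12.7 and 10.6 in C9 and 14.2, 13.0 and 16.4 in C8. It scored 11.2, 11.6 and 9.14 in C11, 12.6, 12.1 and 13.3 in C10, and 11.3, 9.92 and 7.90 in C6. These values carry no test, and the share of all genes apart in these cluster pairs is not given. Nothing is therefore read from the pairs that do not overlap.

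Only clusters C5 (Int) and C2 (Late) held at least 50 nuclei in every library, and in neither was any of the 9 genes called. In C5, 0.89% of 19438 genes were called. Pds5a there scored 81.4, 78.6 and 96.6 in WT and 73.0, 66.8 and 65.6 in KO. The groups were apart, as they were for 19.6% of genes in C5, and the log2 change was -0.31 ± 0.13 (adjusted p = 0.332), or -0.38 less the all-gene median of C5. Esco2 was at 0.15 ± 0.13 in C5 (adjusted p = 0.652), or 0.088 less that median, and Wapl at -0.099 ± 0.13 (adjusted p = 0.803), or -0.17. Without KO replicate 2 they were at 0.079 and -0.026, and without WT replicate 3 at 0.24 and -0.15. Esco1 scored 33.6, 32.2 and 26.0 in WT and 42.3, 38.3 and 39.8 in KO, also apart, with a change of 0.39 ± 0.17 (adjusted p = 0.356), or 0.32 less the median.

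C2 held 7070 KO and 190 WT nuclei, and the WT nuclei were shallow, with a median of 2101 fragments against 6285.5. No gene of 17360 passed the adjusted limma test there (0.0%), although 2190 (12.6%) had an unadjusted p under 0.05. Leaving out WT replicate 1, 2 or 3 raised the number called to 395, 873 and 1161. Pds5a scored 58.0, 62.7 and 54.9 in WT and 37.4, 41.5 and 42.1 in KO, again apart, as were 25.8% of genes in C2, with a log2 change of -0.53 ± 0.18 (adjusted p = 0.334), or -0.68 less the all-gene median of 0.15. Mau2 was apart the other way, with 91.3, 80.5 and 80.2 in WT and 102, 105 and 92.0 in KO. Its change was 0.25 ± 0.15 (adjusted p = 0.529), or 0.091 less that median. Wapl was at 0.18 ± 0.18 and Esco2 at 0.13 ± 0.19 within C2 (adjusted p of 0.713 and 0.818), or 0.022 and -0.029 less that median, and they ran from 0.067 and -0.052 without WT replicate 2 to 0.34 and 0.29 without WT replicate 1. The WT and KO values of Wapl and Esco2 overlapped in C2 and in C5. Those of Hdac8 overlapped in both clusters too, and in C2 WT replicate 3 (16.6) scored above every KO library. Its log2 change was 0.28 ± 0.40 in C2 (adjusted p = 0.805), or 0.12 less the all-gene median. In C5 it was 0.24 ± 0.28 (adjusted p = 0.765), or 0.18 less that of C5. C1, C4 and C7 also held both genotypes, with 138, 143 and 732 nuclei, too few in some libraries for a test.

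**Figure D4:**
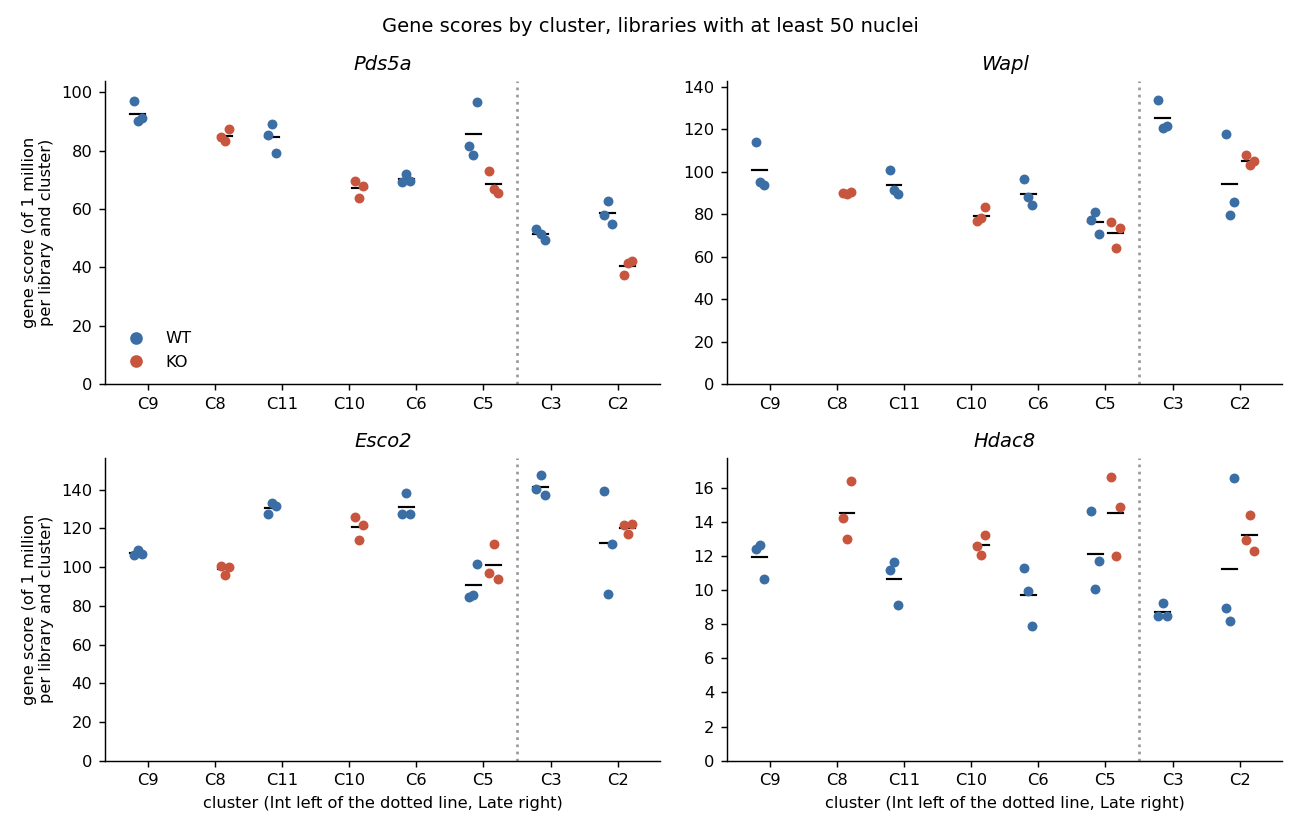
Gene scores of Pds5a, Wapl, Esco2 and Hdac8 (y axes) in 8 clusters (x axis; Int left and Late right of the dotted line), with 1 point per library that held at least 50 nuclei of the cluster, WT in blue, KO in red and black lines at group means. In C5 and C2, the clusters that could be tested, the KO points of Pds5a lie below all WT points, and those of Wapl, Esco2 and Hdac8 overlap them.

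Since neighbouring genes can share fragments, tested genes within 100 kb were read in the same fits. Which of them do so is not known. Of all genes, 51.4% were called in Late (32.9% higher and 18.5% lower) and 19.8% in Int (12.7% and 7.1%), so a called neighbour is common. Both neighbours of Pds5a were lower in Late KO nuclei: N4bp2, 65.7 kb away, by -0.43 (adjusted p = 3.40e-04), and Ube2k, a ubiquitin-conjugating enzyme 16.3 kb away, by -0.30 (adjusted p = 3.98e-04). N4bp2 was also lower in Int, by -0.19 (adjusted p = 0.00794), a call lost without WT replicate 1 (-0.16, adjusted p = 0.0536) or KO replicate 2 (-0.17, adjusted p = 0.0503). Around Pds5b, which was not called, both neighbours fell in both classes. N4bp2l1, 79.3 kb away, fell from 28.2 to 15.7 in Late (-0.80, adjusted p = 2.18e-05) and from 34.1 to 22.1 in Int (-0.59, adjusted p = 2.57e-04). N4bp2l2, 8.2 kb away, changed by -0.24 in each class (adjusted p = 0.00468 in Late and 0.00263 in Int). The called changes of these 4 neighbours kept their direction with median centring, quantile normalization and cyclic loess.

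Around Wapl the Late neighbours went both ways. Opn4, the melanopsin gene, was lower (-0.32, adjusted p = 0.00153), while Grid1 (0.50, adjusted p = 5.54e-04) and Ldb3 (0.37, adjusted p = 0.00954), genes of neurons and muscle, were higher. None of these 3 passed in Int. Next to Esco2, Ccdc25 at 3.3 kb fell in Late (-0.19, adjusted p = 0.00283) and in Int (-0.15, adjusted p = 0.0307), and Scara5 was higher in Late (0.45, adjusted p = 0.00228). The Int call of Ccdc25 was lost with quantile normalization and with cyclic loess. It was also lost without WT replicate 2 or 3 or KO replicate 2 or 3 (adjusted p of 0.0546 to 0.125). Next to Hdac8, Phka1, a phosphorylase kinase subunit 8.8 kb away, was higher in Late (0.41, adjusted p = 0.00440), where the mean score went from 6.74 to 9.26. That call was lost with quantile normalization (0.069) and cyclic loess (0.073), which also ended those of Ldb3 and Scara5. The call of Grid1 was lost with quantile normalization (0.20) and kept with cyclic loess (0.26).

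Neighbours of the genes with no called change are given beside those same shares. Around Cdca5, 18 genes were tested and in Late 5 were lower (Tm7sf2, -0.34, Sac3d1, -0.32, Vps51, -0.31, Snx15, -0.24, and Gm10814, -0.14) and Batf2 was higher (0.34). In Int, Sac3d1 (-0.18), Capn1 (-0.17) and Gm10814 (-0.17) were lower and Batf2 (0.43) was higher. Around Mau2, 5 of 10 were higher in Late, led by Tm6sf2 (0.43) and Nr2c2ap (0.33), with Ncan (0.30), Hapln4 (0.29) and Mir7066 (0.27); Hapln4 turned negative with quantile normalization (-0.047) and cyclic loess (-0.055). In Int only Nr2c2ap was called, at 0.41. Around Esco1, Abhd3 (0.43) and Greb1l (0.35) were higher and Snrpd1 (-0.25) was lower in Late. The only tested neighbour of Nipbl, Cplane1, did not pass (Late -0.13, adjusted p = 0.125). With quantile normalization and cyclic loess the Late calls of Tm6sf2 (0.090 and 0.095), Mir7066 (0.041 and 0.093), Abhd3 (0.057 and 0.044), Greb1l (0.073 and 0.13), Batf2 (0.10 and 0.15) and Gm10814 (-0.082 and -0.074) were lost. Ncan lost its call too, at 0.037 with cyclic loess and near 0 with quantile normalization. In Int both scalings ended the calls of Sac3d1, Capn1 and Batf2, and cyclic loess that of Gm10814. Leaving out 1 library ended the Late calls of Gm10814, Batf2, Nr2c2ap, Ncan, Hapln4, Mir7066 and Snrpd1 (adjusted p of 0.0507 to 0.180, each of the 6 libraries ending at least 1) and the Int calls of Sac3d1, Capn1, Gm10814 and Batf2 (a KO library in each case, adjusted p of 0.0663 to 0.158).

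**Figure D5:**
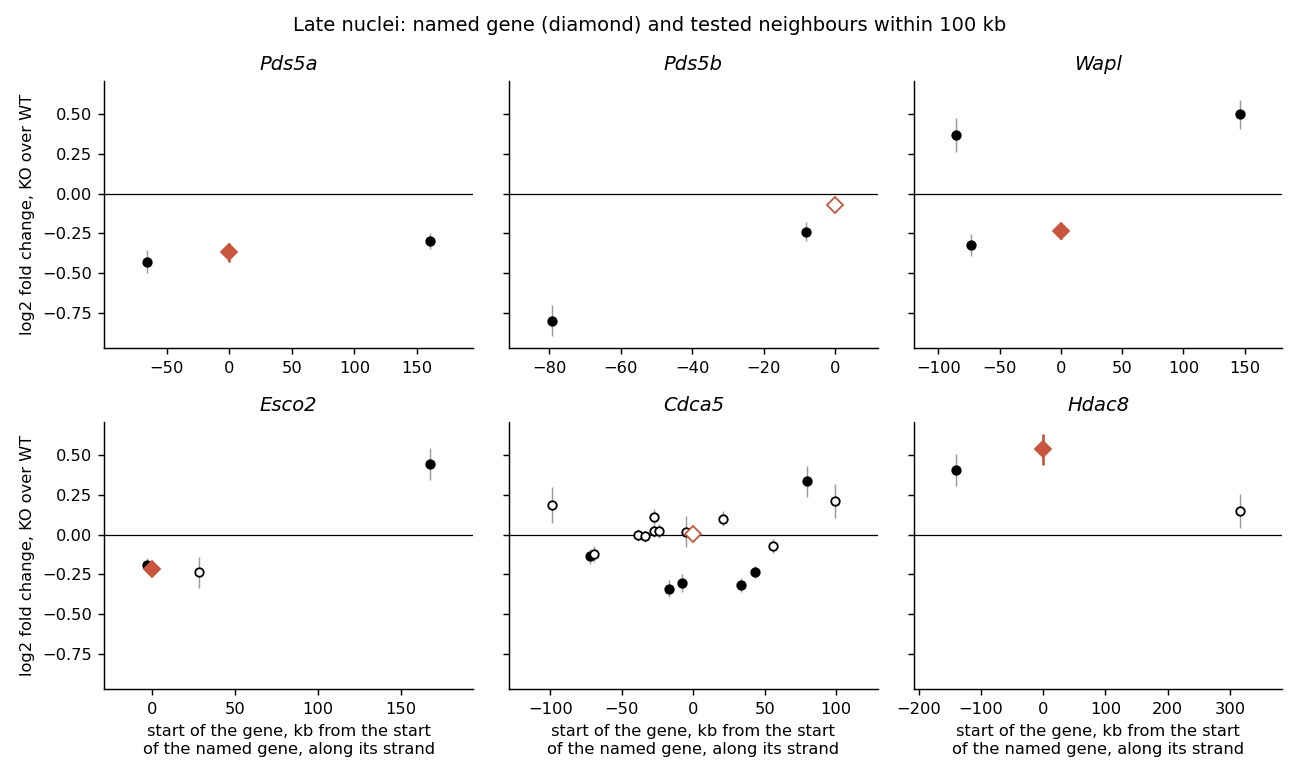
Log2 fold change in Late nuclei, KO over WT (y axis, bars are the SE), of 6 of the genes (red diamonds, open where not past the threshold) and of tested genes within 100 kb (circles, filled where past it), by distance between gene starts in kb (x axis). Both neighbours of Pds5a (-0.43 and -0.30) and of Pds5b (-0.80 and -0.24) lie below 0.

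The genes of the ring and of CTCF give the setting for these regulators. Of Smc1a, Smc3, Rad21, Stag1, Stag2 and Ctcf, 1 was lower and none higher in each class, where 18.5% (Late) and 7.1% (Int) of all genes were lower and 32.9% and 12.7% higher. In the upper 2 quartiles of score, which held 5 of the 6 in Late and all 6 in Int, 31.4% (Late) and 13.4% (Int) of genes were lower. In Late this was Stag1, the alternative to Stag2, with scores of 73.8, 74.0 and 67.0 in WT and 56.3, 60.6 and 59.6 in KO (-0.28 ± 0.055, adjusted p = 9.90e-04). In Int it was Smc3, the substrate of Esco1, Esco2 and Hdac8, with 87.6, 93.0 and 98.6 in WT and 84.1, 82.5 and 85.0 in KO (-0.15 ± 0.051, adjusted p = 0.0421), a call kept in 7 of 17 alternatives and lost without WT replicate 2 or 3 or any single KO library (-0.16 to -0.10, adjusted p of 0.0604 to 0.140). Late changes of the others were 0.062 for Smc1a, -0.11 for Smc3, -0.10 for Rad21, -0.091 for Stag2 and -0.10 for Ctcf. In Int they were -0.073 for Smc1a, -0.057 for Rad21, -0.11 for Stag1, -0.0080 for Stag2 and -0.12 for Ctcf. The list's median was -0.10 in Late and -0.092 in Int. With median centring 5 of the 6 were lower in each class.

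Of 15 genes that act with cohesion establishment at the replication fork, 5 were lower in Late and 2 in Int, and none was higher. This stands beside 18.5% lower and 32.9% higher over all genes in Late (31.4% and 14.5% in the upper 2 quartiles of score, which held 12 of the 15) and 7.1% and 12.7% in Int (13.4% and 13.9%). The counts for the lists below stand beside the same shares, and nothing particular to any list is read from them. Wdhd1, which tethers polymerase alpha to the fork, was lower in both classes (-0.28 in Late and -0.17 in Int). Mcm6, a subunit of the replicative helicase, was lower in Late (-0.25), and Mcm4, another subunit, in Int (-0.14). The other 3 called in Late, named here after their values were seen, were Dscc1 (-0.22, adjusted p = 0.0247), Mcm3 (-0.20, 0.0224) and Rfc1 (-0.19, 0.0431), and each lost its call on leaving out 1 library. The remaining helicase genes Mcm2, Mcm4, Mcm5 and Mcm7 did not pass in Late (-0.094 to -0.033), nor did those other than Mcm4 in Int. Of 11 genes of mitotic cohesin removal and protection, 3 were lower in Late, led by the kinases Plk1 (-0.23) and Bub1 (-0.23). In Int, Haspin, a histone H3 kinase, was lower (-0.16) and Pttg1 (securin) was higher (0.23), a call kept in 4 of 17 alternatives. Of 8 condensin genes, Ncaph2 (-0.28) and Ncaph (-0.26) were lower in Late and Ncapg in Int (-0.16). Of 9 partners of Nipbl and of acetylation, Med12, a Mediator kinase module subunit, was lower in both classes (-0.21 in Late and -0.16 in Int), and the deacetylase Hdac2 was higher in Late (0.29), a call lost with quantile normalization (0.17). In Late 3 genes of that list were lower in all. The Late medians of these 4 lists were -0.079, -0.11, -0.087 and -0.036, beside 0.052 over all genes, and the Int medians -0.053, -0.072, -0.11 and -0.019, beside 0.057. Most genes of each list lay in the upper 2 quartiles of score. The medians of those quartiles were -0.0595 and -0.0622 in Late and 0.019 and -0.0639 in Int. With median centring the numbers lower in the 4 lists were 10, 7, 6 and 4 in Late and 6, 7, 7 and 4 in Int, and Pttg1 was no longer called. With quantile normalization they were 5, 3, 2 and 2 in Late and 2, 1, 0 and 0 in Int, and with cyclic loess 5, 3, 2 and 1 and 1, 1, 0 and 0. In Int both scalings ended every call named for these 4 lists, so the genes counted there under them are others. The last list's Late median was positive with quantile normalization (0.0071) and cyclic loess (0.026). In Int each of the calls named for these 4 lists was lost on leaving out 1 library: Wdhd1 (WT replicate 1 or KO replicate 1), Mcm4 (WT replicate 3 or KO replicate 1 or 3), Haspin (WT replicate 3 or KO replicate 2 or 3), Pttg1 (WT replicate 1 or 3 or KO replicate 1 or 2), Ncapg (WT replicate 3 or any KO replicate) and Med12 (WT replicate 1 or 3 or KO replicate 1 or 2), with adjusted p of 0.0530 to 0.231. Of those named in Late by the naming rule, leaving out 1 library ended only that of Bub1, without KO replicate 2 (-0.19, adjusted p = 0.0604).

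Likeness of pattern was measured over 12 points, the 6 libraries in each of Int and Late, as Pearson's r of log2 scores with all tested genes over 1 Mb away. The points share libraries and depth and lie in Int and Late, so r also carries the Late against Int differences given above. It is a description. Pds5a was most like Npepps (0.994) and Lrba (0.993), Pds5b like Gas2 (0.987) and Ruvbl1 (0.983), and Wapl like Map4k5 (0.988) and Rbck1 (0.983). Nipbl was most like Aftph (0.972) and Tceanc2 (0.971), and Mau2 like Epb41 (0.983), which encodes the red cell skeleton protein 4.1, and Ciapin1 (0.983). Esco2 was most like Otud4 (0.979) and Zswim8 (0.975), Cdca5 like Map3k12 (0.975) and Rpl27a (0.975), and Hdac8 like 2900097C17Rik (0.971) and Osbpl7 (0.971). Esco1 had the lowest leading values, with Mettl18 (0.921) and Ythdf2 (0.895). Among the 9 genes, r was 0.944 between Nipbl and Wapl and 0.942 between Pds5a and Pds5b, while Mau2 ran opposite to Pds5a (-0.902) and Pds5b (-0.886).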

How the data were processed

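Gene scores were deposited as a signal per gene and nucleus, scaled by the authors so that the values of a nucleus sum to about 10000 (checked). Cell Ranger and mm10 are named in the submitters' processing notes; how fragments were weighted by distance to a gene is not given in the sources used here. The deposited table of nuclei gives fragment counts, a doublet score and TSS enrichment score, and the authors' classes and clusters, per the file headers. It lists nuclei 2 times. Values were read from the first copy and names of nuclei from the second, after a check that both held the same values. Scores were averaged per library (WT or KO, by label), rescaled to 1000000, and log2(value + 1) was tested with limma 3.58.1 in R 4.3.3 (mean-variance trend, two-sided) for genes with a mean of at least 5, with Benjamini-Hochberg adjustment over all genes and a threshold of 0.05. Fold changes on this scale are understated for low genes. The KO effect in Late less that in Int was fitted on within-library differences. Classes or clusters with at least 50 nuclei in every library were tested. The alternatives covered scaling, pseudocount, filter, variance trend, replicate block, left-out libraries, weighting, doublets and depth. The fit was also run on simulated libraries in which few genes were changed, as many up as down. That setting holds no shift over all genes, so it does not bear on the moving zero described above. Python 3.11.15 (pandas 2.3.3, numpy 2.4.6, matplotlib 3.10.9) served for tables and figures. Members, gene lists and tests were chosen with earlier results of these data known. The text names all members, all of the ring list, the 2 strongest called genes of each other list in Int and Late, called or strongest neighbours, and the 2 most alike genes. The other samples of the series were not analysed here.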

Additional observations from a re-analysis of the deposited data

How the results depend on the processing

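In Late nuclei, the calls for Wapl, Pds5a and Esco2 held in 17 of 17 alternatives, with log2 changes of -0.30 to -0.17, -0.43 to -0.32 and -0.28 to -0.15, and that of Hdac8 in 15 of 16 (0.23 to 0.59). In Int, Wapl kept its call in 11, Pds5a in 9 and Esco2 in 13 of 17, all with the same sign. Over all nuclei Wapl kept it in 12, Pds5a in 16 and Esco2 in 17 of 17, and Hdac8 in 13 of 16. Cdca5 and Mau2 were called in none. Late against Int reversed for Hdac8 with quantile normalization (0.244) and cyclic loess (0.191). The number of genes called was 7661 over all nuclei, 4244 with a minimum mean of 20, 2415 with nuclei weighted by fragments and 5355 to 8440 without 1 library. In Int it was 3858, with 2419 without a filter, 1921 without a variance trend and 2547 to 4782 without 1 library (2547 without KO replicate 1). In Late it was 8161, with 4560 at a minimum mean of 20 and 6616 to 7892 without 1 library. For the difference between classes it was 1017, with 309 to 2211 without 1 library (WT replicate 1, 363; WT replicate 3, 2211; KO replicates 1 to 3, 584, 309 and 649) and 35 with the variance trend on the mean difference, an alternative chosen after seeing the data. In C5 it was 173, with 8 to 329 without 1 library (KO replicates 1 to 3, 8, 26 and 10; WT replicate 1, 329), and in C2 it was 0, with 0 to 1161. The cause was not tested. Same-numbered libraries did not deviate together (correlations of -0.117, -0.273 and 0.206 over all nuclei and 0.129, -0.084 and 0.192 in Int). In Late the values were 0.087, 0.045 and 0.051, each below 0.1 but the highest for its library, a hint from the data and not the design. With these numbers the replicate block gave 7470 calls over all nuclei, 4527 in Int, 7982 in Late and 1436 for the difference, and moved no member's call. C2 held 190 WT nuclei, with a median of 2101 fragments, and the part of this in its count was not tested.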
